A study of Rattus norvegicus with 18 samples.

Results

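The MYC network was described here by the transcripts of 8 genes in cultured rat heart muscle cells: Myc, Mycn, Max, Mnt, Mxd1, Mxd3, Mxd4 and Mxi1. The genes were chosen by symbol as members of one family of transcription factors, without a threshold on any measured value. The family was nevertheless proposed with earlier results of these data in view, so the calls below say how each gene sits in the fit of the whole table and are not independent evidence for the family. All 8 of 8 symbols were found among the 17303 rows of the deposited table, and all 8 were among the 10478 rows that were tested.

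The cells were ventricular myocytes of Wistar rats at postnatal day 3. Every group had been kept for 48 h with cytosine arabinoside (AraC), which kills dividing cells, and for 24 h without serum before a treatment of 48 h. There were 6 groups of 3 libraries: Vehicle; phenylephrine (PE) at 10 µM, an agonist of alpha-adrenergic receptors that makes these cells hypertrophy; PE with Senexin A at 10 µM; PE with Senexin A at 50 µM; Senexin A at 10 µM alone; and Senexin A at 50 µM alone. Senexin A is an inhibitor of the Mediator kinases CDK8 and CDK19, and the study asked what the kinase activity does during hypertrophy. The cultures are primary and mixed, and the labels do not say whether replicates came from separate litters or preparations, and a p-value here measures only how libraries of a group vary, which may be technical.

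MYC and MYCN are basic helix-loop-helix leucine zipper proteins that bind DNA as dimers with MAX and activate genes of ribosome production, metabolism and the cell cycle. MAX also pairs with the MXD proteins (MXD1, MXD3, MXD4 and MXI1) and with MNT, which recruit SIN3 corepressors to the same sites, so that the members compete for one partner and for one DNA element. In the heart, MYC and MYCN drive the growth and division of fetal myocytes, and MYC is known to return with hypertrophic stimuli. The element that the dimers share is the E-box CACGTG, a palindrome that reads alike on both strands.

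The E-box was searched in the 250 bases before the listed start of each gene, in the RefSeq promoters of the GRCr8 build, because members of the network could carry the network's own element. A promoter was matched for 6 of the 8 members. Of these, 3 held 1 match each, and the windows of 60 bases around it are shown 5′ to 3′ on the gene's strand with the E-box in capitals.
Max, chr6:101395291-101395350, minus strand: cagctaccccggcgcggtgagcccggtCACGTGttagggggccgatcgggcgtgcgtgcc
Mnt, chr10:60197809-60197868, plus strand: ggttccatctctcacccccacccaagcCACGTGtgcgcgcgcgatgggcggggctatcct
Mxd4, chr14:80786557-80786616, plus strand: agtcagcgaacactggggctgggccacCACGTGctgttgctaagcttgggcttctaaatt
The first base of the E-box lay 33 bases before the start of Max, 123 before that of Mnt and 197 before that of Mxd4. These letters were not in the windows of Mxd1, Mxd3 and Mxi1. Across RefSeq, 5.59% of all 33469 promoters of this length held the E-box, and 8.44% of the 8014 promoters matched to tested rows did. Of the genes with the E-box, Max passed no test, Mnt fell with PE and with 50 µM of the inhibitor alone, and Mxd4 fell with PE and on both backgrounds at 50 µM, as given below. Of those without it, Mxi1 likewise fell with PE and on both backgrounds at 50 µM. Mxd3 fell on both backgrounds at 50 µM, and Mxd1 rose with 50 µM alone. A part of the E-box in these changes was not tested.

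The table held 1 FPKM value (fragments scaled to gene length and to the mapped fragments of the library) per gene and library. FPKM sums ran from 610324 to 910958 per library, libraries of one group correlated across rows with r between 0.9863 and 0.9923, and depth relative to the second Vehicle library ran from 0.83 to 1.11, with absolute depth unknown. Marker genes of heart muscle stood at summed levels of 29800 to 94000 FPKM over all libraries, and the cultures also held markers of smooth muscle (1770 to 6090), fibroblasts (1110 to 4530), macrophages (16.6 to 390) and endothelium (1.09 to 7.72). In bulk RNA, fewer cells of a type and less RNA per cell cannot be told apart. Levels are given as FPKM, and changes as log2(FPKM + 1) with their standard error (SE) from limma, with p-values adjusted over all 10478 rows of a comparison. Passing the test means an adjusted p under 0.05.

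In Vehicle, the antagonists Mxd4 and Mxi1 stood above Myc and Mycn in every library, while Mxd1, Mxd3 and Mnt overlapped Myc. By mean FPKM, which is scaled by gene length, the order was Mxd4 (36.1), Mxi1 (30.7), Max (27.2), Mxd3 (10.1), Mnt (9.39), Myc (7.35), Mxd1 (7.23) and Mycn (3.45). The libraries of Mxd4 and Mxi1 did not overlap, and those of Mxi1 and Max did, as did those of neighbours from Mxd3 to Mxd1. Mycn stood below every other member. Over the 6 groups the means of Mxd3 spanned 2.52 on the log2 scale, those of Mycn 2.06, Mxd4 1.68, Mxi1 1.66, Myc 1.63, Mnt 0.75, Mxd1 0.52 and Max 0.25, beside a median of 0.66 over all tested rows. Only 6.1% of tested rows had a smaller span than Max, whereas 98.3% had a smaller span than Mxd3.

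**Figure D1:**
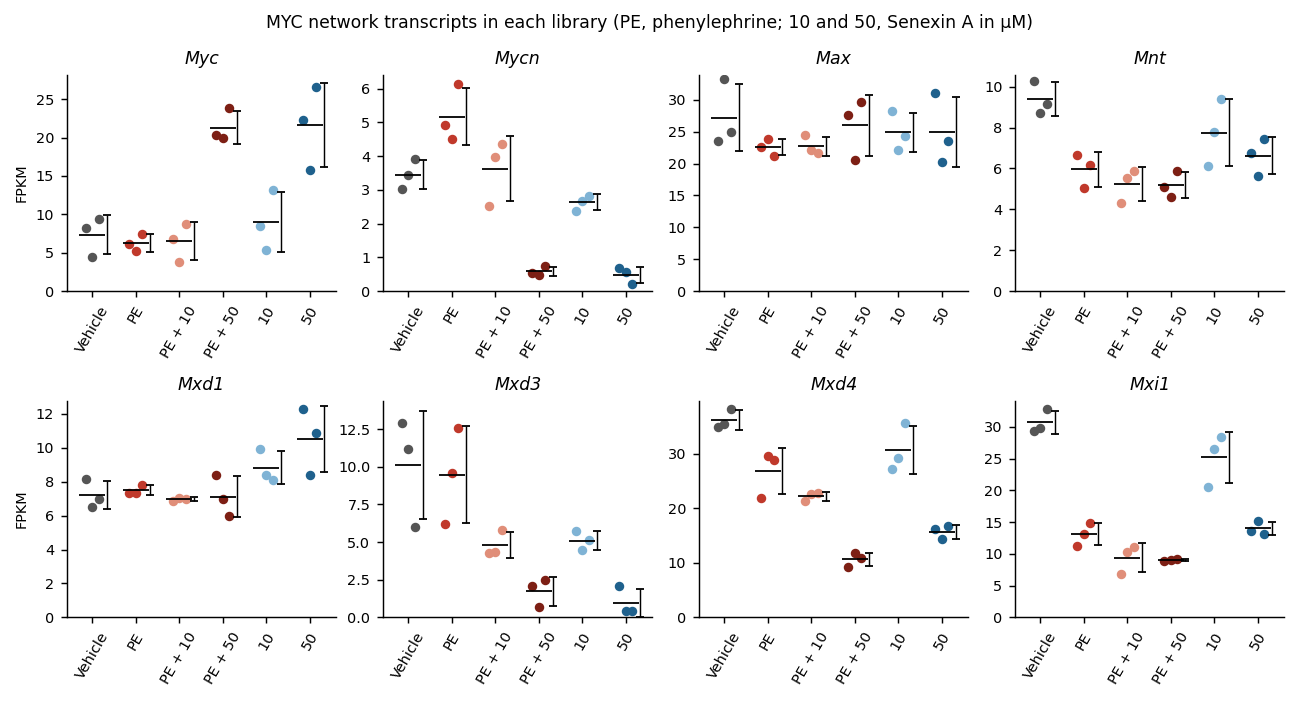
FPKM of the 8 members in each library, with 1 panel per gene, points for libraries, a line for the group mean and a bar for the SD of 3 libraries. Myc sits between 15.8 and 26.6 FPKM in the 6 libraries with 50 µM Senexin A and at 13.2 or below in the other libraries, while Mycn sits at 0.737 or below in the former and at 2.36 or above in the latter.

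With phenylephrine alone, the members that fell were all antagonists. Against Vehicle, 3 of 8 members fell (Mxi1, Mnt and Mxd4) and 1 rose (Mycn), beside 12.7% of all tested rows that fell and 17.9% that rose. The median change of the members was -0.20, and that of all rows was -0.01. Without the third Vehicle library, or without the first PE library, 2 members passed in place of 4.

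With 10 µM Senexin A few members passed the test. Beside PE, 1 of 8 members fell (Mxi1) and none rose, against 7.84% and 9.13% of all tested rows, with a median change of -0.20 over the members and 0.01 over all rows. There, 3 members had an unadjusted p under 0.05 (Mxi1, Mycn and Mxd3). Without PE, limma called 0 of 8 members, with 1 at an unadjusted p under 0.05 (Mxd3), where 9.17% of tested rows rose and 7.01% fell. The median change without PE was -0.25 over the members and -0.01 over all rows. The alternative fits with limma called 0 or 1 member here.

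At 50 µM the network changed in both directions. Beside PE, 1 of 8 members rose (Myc) and 4 fell (Mycn, Mxd3, Mxd4 and Mxi1), where 29.3% of tested rows rose and 27.4% fell. Without PE, 2 of 8 rose (Myc and Mxd1) and 5 fell (Mycn, Mxd3, Mxd4, Mxi1 and Mnt), where 30.5% rose and 30.2% fell. The medians over the members were -0.32 with PE and -0.77 without it, beside 0.00 and -0.01 over all rows. With 8 genes, shares of this size were not set apart from the background. These comparisons use the PE or Vehicle libraries that the comparison of PE with Vehicle also uses, so their changes are given side by side and not as support for each other.

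**Figure D2:**
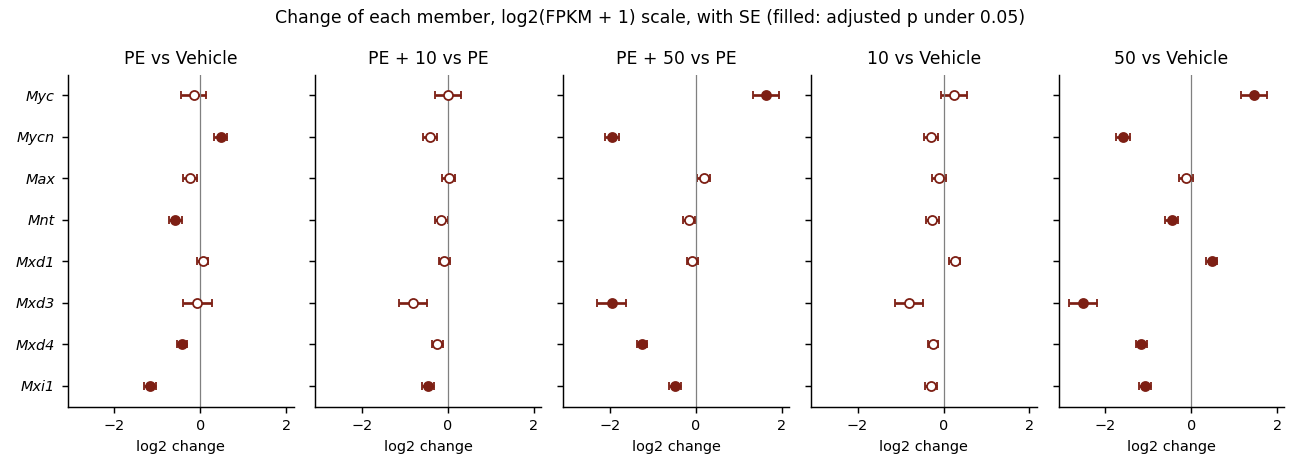
Log2 change (FPKM + 1 scale) of each member in 5 comparisons, with the SE as a bar and a filled point where the adjusted p was under 0.05; 10 and 50 are the doses of Senexin A in µM. The filled points at 50 µM lie on both sides of 0, with Myc at 1.63 and 1.46 and Mycn at -1.95 and -1.59.

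Myc (rn5 chromosome 7, 103157451 to 103162378) encodes the activator that gives the network its name. Its level was 8.25, 4.44 and 9.37 FPKM in Vehicle and 6.14, 5.2 and 7.45 in PE. The groups overlapped, and the change of -0.16 ± 0.30 (95% interval -0.80 to 0.48, adjusted p = 0.72) leaves room for a shift of either sign. With 10 µM Senexin A it was 6.79, 3.84 and 8.78 FPKM beside PE and 8.53, 5.34 and 13.2 without it, again overlapping the groups without the inhibitor (changes of -0.01 and 0.24, adjusted p = 0.99 and 0.65).

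At 50 µM, Myc was 20.3, 19.9 and 23.9 FPKM beside PE and 22.3, 15.8 and 26.6 without it. Every one of these 6 libraries was above every other library. The mean rose from 6.26 ± 1.13 to 21.3 ± 2.2 FPKM (SD, n = 3) beside PE, a ratio of 3.41, with a log2 change of 1.63 ± 0.30 (adjusted p = 0.00025). From Vehicle to 50 µM it rose from 7.35 ± 2.59 to 21.6 ± 5.46 FPKM, a ratio of 2.93 and a log2 change of 1.46 ± 0.30 (adjusted p = 0.00057).

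The spread of Myc within groups followed the replicate number. The library numbered 3 was the highest and that numbered 2 the lowest in 6 of 6 groups. With the number as a block, the SE of the Myc changes was 0.14 in place of 0.30, and PE with 10 µM against 10 µM alone, at -0.41 in both fits, had an adjusted p of 0.029 in place of 0.32.

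Mycn (rn5 chromosome 6, 51348169 to 51353994), the paralog known from embryonic heart growth, went the other way at 50 µM. It measured 3.02, 3.44 and 3.9 FPKM in Vehicle and 4.91, 4.49 and 6.12 in PE, so that each PE library was above each Vehicle library. The change was 0.47 ± 0.16 (adjusted p = 0.041). That call rested on small margins: a pseudocount of 0.1 gave an adjusted p of 0.15 and one of 0.5 gave 0.067, no filter on low values gave 0.069, and it was between 0.052 and 0.15 without any one of the Vehicle libraries or without the first or the third PE library.

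With 10 µM Senexin A, Mycn was 2.53, 3.97 and 4.37 FPKM beside PE and 2.36, 2.68 and 2.83 alone. Beside PE the change was -0.43 ± 0.16 with an adjusted p of 0.084, 0.0499 with the replicate block and 0.0486 without the third library of PE with 10 µM. With 50 µM it was 0.546, 0.485 and 0.737 FPKM beside PE, and 0.67, 0.574 and 0.22 alone. All 6 values at 50 µM were below the lowest value of any other group. The log2 change was -1.95 ± 0.16 beside PE (adjusted p = 1.1e-07), where the mean FPKM was 8.78-fold lower, and -1.59 ± 0.16 without PE (adjusted p = 6.4e-07), where it was 7.07-fold lower. The addition of 1 FPKM before the logarithm makes the log2 changes smaller than these ratios of means.

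The ratio of the paralogs spanned a wider range than their sum. Myc divided by Mycn, in FPKM, was 2.73, 1.29 and 2.4 in Vehicle, 1.25, 1.16 and 1.22 in PE, 37.1, 41.0 and 32.4 in PE with 50 µM, and 33.3, 27.5 and 121.0 with 50 µM alone. The highest of these was set by the Mycn value of 0.22 FPKM in the third library, where Myc was 26.6. The Vehicle group had a sum of 10.8 ± 2.72 FPKM, the PE group 11.4 ± 1.96, the group of PE with 50 µM 21.9 ± 2.33 and that of 50 µM alone 22.1 ± 5.3 (SD, n = 3).

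Max (rn5 chromosome 6, 109380102 to 109403573), the shared partner, passed no test in any of the 11 comparisons. Its mean lay between 22.6 ± 1.29 FPKM in PE and 27.2 ± 5.28 in Vehicle (SD, n = 3), and the libraries of these groups overlapped (22.6, 23.8 and 21.2 against 23.5, 33.3 and 25). The intervals of its change were -0.58 to 0.09 for PE against Vehicle, -0.16 to 0.52 for 50 µM beside PE and -0.46 to 0.21 for 50 µM against Vehicle. Their farthest bound from 0 was -0.58.

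Mnt (rn5 chromosome 10, 61406976 to 61422227), a broadly expressed repressor that also dimerizes with MAX, measured 10.3, 8.7 and 9.18 FPKM in Vehicle and 6.68, 5.03 and 6.16 in PE. The groups were apart and Mnt fell by 0.58 ± 0.15 on the log2 scale (adjusted p = 0.0071). With PE present, neither dose moved it past the test (4.32, 5.52 and 5.89 FPKM at 10 µM and 5.08, 4.62 and 5.89 at 50 µM, with changes of -0.16 and -0.16). Without PE it was 6.75, 5.65 and 7.45 FPKM at 50 µM, each below each Vehicle library (-0.45 ± 0.15, adjusted p = 0.014). That adjusted p was 0.099 after quantile normalization, 0.058 without the first Vehicle library and 0.071 without the second library at 50 µM.

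Mxd1 (rn5 chromosome 4, 183021766 to 183042167), known as a repressor that appears as cells leave the cycle and differentiate, was the antagonist that rose with 50 µM alone. It measured 8.16, 6.52 and 7.01 FPKM in Vehicle, 7.36, 7.33 and 7.83 in PE, and 8.37, 6.99 and 5.99 in PE with 50 µM, and these groups overlapped. With 50 µM alone it was 12.3, 8.42 and 10.9 FPKM, each above each Vehicle library, and rose by 0.48 ± 0.13 (adjusted p = 0.0041). Between the PE-treated and the untreated groups at 50 µM it differed by -0.50 ± 0.13 (adjusted p = 0.015). That adjusted p was 0.065 with library weights, 0.098 with only the compared groups in the fit, 0.068 without the third library of PE with 50 µM and 0.076 without the first library of 50 µM.

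Mxd3 (rn5 chromosome 17, 11940005 to 11943732) differs from the other MXD genes in that it is known to be expressed in S phase. It measured 12.9, 11.2 and 6.02 FPKM in Vehicle and 6.21, 9.58 and 12.6 in PE, which overlapped almost fully. At 10 µM it was 4.29, 4.32 and 5.8 beside PE and 5.72, 4.44 and 5.14 alone. All 6 values were below every library without the inhibitor, yet the changes of -0.81 ± 0.33 and -0.80 ± 0.33 had adjusted p-values of 0.11 and 0.12. With only the compared groups in the fit the former was 0.048, and with library weights the latter was 0.041.

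At 50 µM, Mxd3 was 2.06, 0.662 and 2.47 FPKM beside PE and 2.05, 0.447 and 0.426 alone. It fell by 1.96 ± 0.33 (adjusted p = 0.00011) and by 2.52 ± 0.33 (adjusted p = 8.3e-06) on the log2 scale, and its mean was 5.47-fold and 10.3-fold lower. The drop between 10 and 50 µM passed as well, at -1.15 with PE and -1.72 without it, though without the second library of PE with 50 µM the former was -0.82 with an adjusted p of 0.071.

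Mxd4 (rn5 chromosome 14, 82504736 to 82516133) was the most abundant antagonist in every group. It measured 34.8, 35.4 and 38.2 FPKM in Vehicle and 21.9, 29.5 and 28.9 in PE, and fell by 0.43 ± 0.12 (adjusted p = 0.012). The adjusted p was 0.051 without the third Vehicle library and 0.071 without the first PE library, the lowest of the PE group. At 10 µM it was 21.3, 22.6 and 22.8 beside PE and 27.1, 29.1 and 35.6 alone, and neither change passed (-0.25 and -0.24), except that the former had an adjusted p of 0.034 without the first PE library. At 50 µM it was 9.23, 11.7 and 10.9 beside PE and 16.1, 14.3 and 16.8 alone, with no overlap with any group that lacked this dose. The falls were 1.25 ± 0.12 (adjusted p = 3.1e-07) and 1.16 ± 0.12 (adjusted p = 5.6e-07) on the log2 scale.

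Mxi1 (rn5 chromosome 1, 281463333 to 281503729) was the member that PE moved most. It measured 29.4, 29.9 and 32.8 FPKM in Vehicle and 11.3, 13.1 and 14.8 in PE. The groups were far apart, the mean was 2.35-fold lower, and the change was -1.18 ± 0.14 (adjusted p = 2.2e-05). With 50 µM alone it was 13.6, 15.1 and 13.2 FPKM, which overlapped the PE group and lay below Vehicle (-1.08 ± 0.14, adjusted p = 9.3e-06). With PE and 50 µM it was 8.92, 9.05 and 9.11, a further fall of 0.48 ± 0.14 from PE (adjusted p = 0.0097, and 0.0502 without the third PE library).

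With 10 µM, Mxi1 was 6.75, 10.3 and 11 FPKM beside PE and 20.6, 26.5 and 28.4 alone. The former lay below PE by 0.46 ± 0.14 (adjusted p = 0.038), but the call was lost with no filter on low values (0.086), with only the compared groups in the fit (0.12), and without the second or the third PE library or the first library of PE with 10 µM (0.097, 0.15 and 0.19). The latter, at -0.29 from Vehicle, had an adjusted p of 0.2.

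Summed over Mxd1, Mxd3, Mxd4, Mxi1 and Mnt, the antagonists stood at 95.6, 91.7 and 93.2 FPKM in Vehicle and at 53.5, 64.6 and 70.3 in PE. At 10 µM the sum was 43.5, 49.8 and 52.5 beside PE, each below each PE library. With 10 µM alone it was 69.5, 76.3 and 86.6, each below each Vehicle library. The sum was 33.7, 33.0 and 34.4 in PE with 50 µM and 50.7, 43.9 and 48.8 with 50 µM alone. Myc and Mycn together were 0.115 of this sum in Vehicle and 0.183 in PE, and at 50 µM 0.65 beside PE and 0.459 without it, as means of 3 libraries. The sum rests mainly on Mxd4 and Mxi1, which made up 38.7% and 32.8% of it in Vehicle. These are transcript levels, and no protein or dimer was measured.

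**Figure D3:**
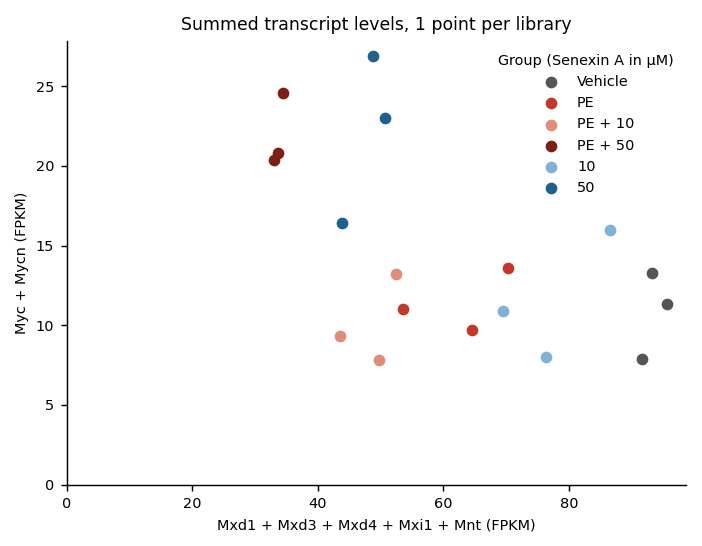
Summed FPKM of Myc and Mycn (vertical axis) against summed FPKM of Mxd1, Mxd3, Mxd4, Mxi1 and Mnt (horizontal axis), 1 point per library, coloured by group. The 6 libraries with 50 µM Senexin A lie highest on the vertical axis, and the 3 Vehicle libraries lie farthest right, at 91.7 to 95.6 FPKM.

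The PE response was also read at each dose of the inhibitor. At 10 µM, 3 of 8 members were lower with PE than without it (Mxi1 by -1.35 ± 0.14, Mnt by -0.48 ± 0.15 and Mxd4 by -0.44 ± 0.12) and none was higher, where 13.6% of tested rows were lower and 18.9% higher. With the replicate block 5 members passed, the additional ones being Myc and Mxd1 (-0.30, adjusted p = 0.034). Mxd4 had an adjusted p of 0.062 without the third library of 10 µM. For Mnt it was 0.067 with only the compared groups in the fit, and 0.099, 0.053 and 0.11 without the first library of PE with 10 µM or the second or the third of 10 µM.

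At 50 µM, 3 of 8 were lower with PE (Mxi1 by -0.58 ± 0.14, Mxd4 by -0.53 ± 0.12 and Mxd1 by -0.50 ± 0.13), where 5.01% of tested rows were lower and 9.31% higher. Myc, at 0.01 with an interval of -0.63 to 0.65, did not pass. The PE response at 50 µM differed from the PE response without inhibitor in 0 of 8 members by limma, with 2 at an unadjusted p under 0.05, and in 7.01% of all tested rows. Those 2 were Mxi1 (0.60 ± 0.20, adjusted p = 0.091) and Mxd1 (-0.56 ± 0.18, adjusted p = 0.075). With the replicate block both passed, at adjusted p-values of 0.0155 and 0.0212. Mxi1 also passed with only the compared groups in the fit (0.0243), and Mxd1 after quantile normalization (0.0413) and without the second library of 50 µM (0.0298). At 10 µM the difference passed for 0 of 8 members, with 0 at an unadjusted p under 0.05, and for 0.305% of tested rows.

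Between the doses, Myc, Mycn, Mxd3 and Mxd4 separated 50 from 10 µM on both backgrounds. With PE, Myc was higher by 1.63 and Mycn, Mxd3 and Mxd4 lower by -1.52, -1.15 and -1.0, so 1 of 8 members was higher and 3 lower, where 21.3% of tested rows were higher and 19.9% lower. Without PE, Myc was higher by 1.22 and Mycn, Mxd3, Mxd4 and Mxi1 lower by -1.30, -1.72, -0.92 and -0.80, so 1 was higher and 4 lower, where 25.4% and 24.9% of tested rows were. Mxi1 differed by -0.02 between the doses with PE.

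At 50 µM, genes of dividing cells fell beside Mycn and Mxd3. All 4 of 4 listed markers (Mki67, Top2a, Ccnb1 and Cdk1) fell at 50 µM, with a median change of -1.57 beside PE and -2.16 without it. Of all tested rows, 27.4% and 30.2% fell. PE raised 3 of the 4, where 17.9% of all tested rows rose, while Mycn changed by 0.47 and Mxd3 by -0.07. At 10 µM beside PE, Mycn changed by -0.43 and Mxd3 by -0.81, and neither passed. Of all tested rows 9.13% rose and 7.84% fell there. Of the 4 markers 0 passed (Mki67 -0.30, Top2a 0.27, Ccnb1 0.37 and Cdk1 0.01). At 10 µM without PE, Mki67 fell (-0.56, adjusted p = 0.024), with a list median of -0.31. Top2a (-0.39), Cdk1 (-0.24) and Ccnb1 (-0.06) did not pass. With 1 library left out, 0 to 2 of the 4 fell. In that comparison Mycn changed by -0.29 and Mxd3 by -0.80, neither passed, and 9.17% of all tested rows rose and 7.01% fell. The summed level of the 4 markers was 124 to 162 FPKM in Vehicle, 205 to 251 in PE, 233 to 263 in PE with 10 µM, 66.6 to 78.4 in PE with 50 µM, 104 to 138 with 10 µM and 25.4 to 37.3 with 50 µM, and no marker stood at 0 in all libraries. Their part in the member results was not tested.

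Some markers of other cells moved beside Mxd4 and Mxi1. The summed fibroblast markers (9 of 9 in the table, with Col1a2 listed at or near the floor of 0.01 FPKM throughout) were 2860 to 4120 FPKM in Vehicle, 1990 to 2790 in PE, 1570 to 2640 in PE with 10 µM, 1110 to 1870 in PE with 50 µM, 2740 to 4530 with 10 µM and 1530 to 1890 with 50 µM. The 4 smooth muscle markers summed to 4500 to 6090, 3790 to 5690, 3160 to 4210, 1800 to 1950, 3820 to 4990 and 1770 to 2780 FPKM in the same order. The sums are carried by a few abundant genes. Of 8 tested fibroblast markers only Vim passed as lower with PE, where 12.7% of all tested rows fell. The changes of all 8 with PE were below 0, with a list median of -0.45 beside -0.01 over all rows. At 50 µM beside PE, Col1a1 (-1.22), Col3a1 (-1.07) and Vim (-0.39) fell, where 27.4% of all tested rows fell. There Dcn (0.41), Tcf21 (0.23), Postn (0.19), Pdgfra (0.05) and Lum (-0.07) did not pass, with a list median of -0.01. Of the 4 smooth muscle markers, Cnn1 rose with PE (1.07), where 17.9% of all tested rows rose. At 50 µM, Cnn1, Acta2 and Tagln fell on both backgrounds (list medians of -1.35 with PE and -1.27 without it). Of all tested rows, 27.4% fell with PE and 30.2% without it.

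Markers of heart muscle moved as well. Their sum (7 of 8 in the table) was 30900 to 44900 FPKM in Vehicle, 76600 to 94000 with PE, 57000 to 75400 for PE plus 10 µM, 38700 to 49600 for PE plus 50 µM, 41900 to 55500 for 10 µM and 29800 to 47700 for 50 µM. With PE 5 of 7 rose, among them Myl2 (1.23 ± 0.23) and Actn2 (0.95 ± 0.10), where 17.9% of all tested rows rose. At 50 µM beside PE, Mybpc3 (-1.38), Myl2 (-1.14) and Actn2 (-1.02) fell and Myh6 rose (1.87 ± 0.69). The libraries of the compared groups overlapped for Myh6 there, and the interval of its change was 0.41 to 3.33. Without PE, Mybpc3 (-0.60) and Actn2 (-0.68) fell and Tnni3 (0.78) and Myh6 (1.96) rose. At 50 µM, 29.3% of all tested rows rose and 27.4% fell beside PE, and 30.5% rose and 30.2% fell without it. The part of these cell markers in the member results was not tested.

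The genes whose group means were closest in shape to each member were taken from 8000 rows with a mean of at least 5 FPKM. Closeness was the root-mean-square difference between the 6 centred group means on the log2 scale, and is a description over 6 groups. For Myc the nearest were Xpot, which exports tRNA from the nucleus, Hax1 and Phf10 (each 0.13), and Xpot went from 23.6 FPKM in PE to 78.4 in PE with 50 µM. For Mycn they were Fbxo5 (0.09), an inhibitor of the anaphase-promoting complex, Lyn (0.14) and Mms22l (0.14). For Mxd3 they were Mcm3 (0.08), a subunit of the replicative helicase, Nrm (0.11) and Tcf19 (0.12), and Mcm3 went from 22.2 FPKM in PE to 5.54 in PE with 50 µM.

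The remaining antagonists had other neighbours. Mxd4 lay closest to the potassium channel gene Kcnj12, to Mturn and to the metalloproteinase inhibitor gene Timp2 (each 0.09). Mxi1 lay closest to the receptor gene Notch3 (0.11), to Igfbp6 and to Adamts5 (each 0.13), and Notch3 went from 20.3 FPKM in Vehicle to 10.4 in PE. Mnt lay closest to Fam214a (0.06), Zfp219 (0.06) and Dstyk (0.07), and Mxd1 to Psap (0.07), Mocs3 (0.07) and Galk2 (0.08).

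Of 15 listed partners and cofactors of the network, 13 were found in the table and 11 were tested. With PE, Mycbp (0.61 ± 0.14) and Mlx (0.43 ± 0.10), a MAX-like partner of the glucose-sensing branch, rose. Trrap (-0.37 ± 0.11), a scaffold that MYC recruits with acetyltransferases, fell. Thus 2 of 11 rose and 1 fell, where 17.9% of all tested rows rose and 12.7% fell. With the replicate block 3 fell, and without the third Vehicle library or the first or the second PE library none did. At 10 µM beside PE only Ruvbl2 passed (0.39 ± 0.09, adjusted p = 0.0058), where 9.13% of all tested rows rose and 7.84% fell. Without PE limma called 0 of 11, where 9.17% of all tested rows rose and 7.01% fell. For 10 µM without PE, 5 of the alternative settings called 1, as did the fits without the third Vehicle or the first 10 µM library. At 50 µM beside PE, 5 of 11 rose and 5 fell with a median of 0.03, where 29.3% of all tested rows rose and 27.4% fell. The count that rose was 3 without a filter, after quantile normalization or median-ratio scaling, with only the compared groups, and without the second PE library or the first or the second of PE with 50 µM, and without that last library 3 fell. The changes of largest size were Ruvbl2 (0.81 ± 0.09), an ATPase that binds MYC, Bin1 (-0.59 ± 0.17), an adaptor that inhibits MYC, Mycbp (-0.43 ± 0.14) and the corepressor gene Sin3a (-0.42 ± 0.12). Without PE 3 rose and 3 fell, where 30.5% and 30.2% of all rows did, among them Ruvbl2 (0.69), Sin3a (-0.55), Trrap (-0.55) and Bin1 (-0.54), and with the replicate block 5 rose.

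Of 9 listed regulators of the MYC protein, 7 were found and tested. PE raised 3 of 7, where 17.9% of all tested rows rose. Among them were Aurka (1.12 ± 0.16), a mitotic kinase that stabilizes MYCN, and Usp28 (0.49 ± 0.12), a deubiquitinase of MYC. At 10 µM, Usp28 rose beside PE (0.44) and without it (0.63 ± 0.12). Of all tested rows, 9.13% and 9.17% rose there and 7.84% and 7.01% fell. Beside PE, Ppp2r5a, a subunit of protein phosphatase 2A, rose too (0.40) and Skp2 fell (-0.50, adjusted p = 0.049), but 0 of 7 rose without the third PE library or the second of PE with 10 µM, and Skp2 passed under 4 of 10 other settings. At 50 µM beside PE, Pim1, a kinase that phosphorylates MYC, rose from 5.21 ± 1.49 to 17.4 ± 3.76 FPKM (1.57 ± 0.30, adjusted p = 0.00033), and Ppp2r5a rose by 0.71. Aurka (-1.36 ± 0.16) and Skp2 (-1.26 ± 0.17), part of a ubiquitin ligase, fell. In all, 3 of 7 rose and 2 fell with PE, and 4 rose and 2 fell without it, beside 29.3% and 30.5% of all tested rows that rose and 27.4% and 30.2% that fell. Without PE, Pim1 rose by 1.38 and Skp2 and Aurka fell by 1.34 and 1.09 on the log2 scale. Without the third Vehicle library 2 rose.

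Among genes known to be induced by MYC, listed with earlier results of these data in view, most but not all passed as higher at 50 µM. Of 30 listed, all 30 were in the table and 28 were tested, with Srm listed at the floor in every library. Beside PE, 20 of 28 rose and 2 fell with a median change of 0.52, and without PE 22 rose and 2 fell with a median of 0.43, beside the shares of all rows given above (29.3% and 30.5% higher, 27.4% and 30.2% lower). The other 6 and 4 did not pass, and no test set the list against the background. Under the alternative settings the number that rose stayed between 19 and 21 with PE and between 17 and 23 without it.

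Shmt2, which supplies one-carbon units in mitochondria, rose from 43.8 ± 2.07 to 215 ± 7.16 FPKM beside PE (2.27 ± 0.13, adjusted p = 2.4e-09) and from 36.2 ± 2.33 to 163 ± 21 without it. Odc1, the rate-limiting enzyme of polyamine synthesis, rose from 78.9 ± 5.33 to 208 ± 15.9 FPKM (1.39 ± 0.08, adjusted p = 2.5e-09) and from 58.2 ± 2.6 to 175 ± 6.68. The chaperonin gene Hspe1 rose by 1.26 and 1.52. The 2 that fell on both backgrounds were E2f1, a transcription factor of S phase (28.7 to 8.33 FPKM beside PE and 33.5 to 6.86 without it), and the glycolytic gene Ldha (-0.57 and -0.46), named here after its value was seen.

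**Figure D4:**
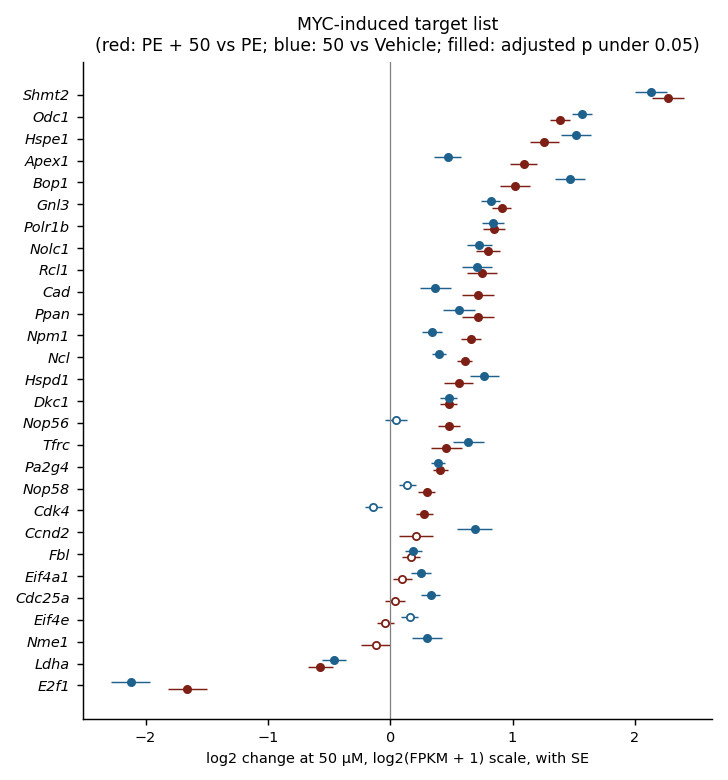
Log2 change (FPKM + 1 scale) with SE of the 28 tested genes listed as induced by MYC, in PE with 50 µM Senexin A against PE (red) and 50 µM against Vehicle (blue). Most points lie right of 0, with Shmt2 at 2.27 and 2.13, and E2f1 lies left at -1.66 and -2.12.

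Between the doses, 19 of 28 induced targets were higher and 3 lower at 50 than at 10 µM with PE (median 0.37). Of all tested rows, 21.3% were higher and 19.9% lower. Without PE 17 were higher and 4 lower (median 0.33), where 25.4% of all tested rows were higher and 24.9% lower. With PE alone 10 of 28 rose and 3 fell (median 0.12), beside 17.9% and 12.7% of all tested rows, among them Tfrc, the transferrin receptor (0.98 ± 0.13), Nme1 (0.84 ± 0.12), Ldha (0.61 ± 0.10) and Cdk4 (-0.45 ± 0.07). The direction of that count rests on the scaling, since after quantile normalization 5 rose and 6 fell. With 1 library left out, 6 to 8 rose and 1 or 2 fell in each of the 6 fits. At 10 µM, 5 rose and 2 fell beside PE, among them Hspe1 (0.72), Shmt2 (0.68), E2f1 (-0.61) and Tfrc (0.52). Of all tested rows, 9.13% rose and 7.84% fell there. Without PE 5 rose and 1 fell (E2f1, -0.67), led by Tfrc (1.14 ± 0.13), and 8 rose with the replicate block. In the fit without the block, 9.17% of all tested rows rose and 7.01% fell at 10 µM without PE. With 1 library left out the count that rose was 2 (without the second or the third PE library) or 3 (without the first of PE with 10 µM) beside PE. Without PE it was 2 (without the first or the third Vehicle library or the first of 10 µM) or 3 (without the second Vehicle library or the second of 10 µM). The PE response at 50 µM differed from that without inhibitor for 2 of 28, Apex1 (0.61 ± 0.16, adjusted p = 0.03) and Cdk4 (0.42 ± 0.10, adjusted p = 0.015). That share was near the 7.01% of all tested rows that passed. With the replicate block 6 passed as higher and 2 as lower, and in 6 of 12 fits with 1 library left out 1 passed as higher.

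Of 11 genes listed as repressed by MYC, 10 were found and 9 were tested. Gadd45a, a stress-induced growth arrest gene, rose from 98.5 ± 14.4 to 498 ± 45.1 FPKM at 50 µM beside PE (2.33 ± 0.12, adjusted p = 9.3e-10) and from 51.8 ± 3.34 to 531 ± 54.9 without PE (3.33, adjusted p = 2.5e-11). Its paralog Gadd45b fell (-1.11 and -1.34), as did the integrin gene Itgb1 (-0.60 and -0.68). Cdkn1c, which encodes a cyclin-dependent kinase inhibitor, fell with PE (-1.48, adjusted p = 2.8e-05) and rose at 50 µM beside PE (1.01). In counts, 2 of 9 rose and 4 fell at 50 µM beside PE (median -0.17), 2 rose and 3 fell without PE (median -0.24; 4 rose with the replicate block), and 3 rose and 2 fell with PE alone. Of all tested rows, 29.3% rose and 27.4% fell in the first of these comparisons, 30.5% and 30.2% in the second, and 17.9% and 12.7% in the third, so these shares do not set the list apart. After quantile normalization 5 fell with PE alone, and without the second Vehicle or the third PE library 1 did. The PE response at 50 µM was higher than that without inhibitor for 1 of 9 and lower for 2. Of all tested rows, 7.01% passed in that comparison.

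Some transcripts of the inhibited kinase module passed the test. Of 7 listed genes of the module (the kinases, cyclin C, MED12 and MED13 and their paralogs), 6 were found and tested. At 50 µM beside PE, 2 of 6 rose, Ccnc (0.29 ± 0.09) and Cdk8 (0.28 ± 0.11, adjusted p = 0.045), where 29.3% of all tested rows rose. The libraries of the 2 groups overlapped for Cdk8. Without PE, 1 of 6 rose (Ccnc, by 0.32) and 1 fell (Med13, with overlapping libraries, by 0.32, adjusted p = 0.019). Of all tested rows, 30.5% rose and 30.2% fell there. With PE alone 1 of 6 fell (Med12, by 0.25 on the log2 scale), where 12.7% of tested rows fell. With 6 genes, these shares do not set the list apart from all tested rows.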

How the data were processed

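RNA selected for polyadenylated tails was sequenced from 18 libraries, per the labels' protocols. The deposited table gave FPKM values per gene and library, which the authors made with Bowtie2 and Cufflinks on the rn5 build, per the submitters' processing notes. For versions, annotation and use of strand, nothing was given in the sources used here. No member shared its locus with another row.

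Groups came from the labels. A row entered when 3 or more libraries reached 1 FPKM (10478 of 17303). The test was that of limma 3.58.1 in R 4.3.3 on log2(FPKM + 1), with a variance trend and all 6 groups in 1 model. The Benjamini-Hochberg adjustment ran over all rows of a comparison, and log2 changes understate the change of low genes. The script was tested on simulated data. Total reads were not given, so precision is judged from replicates.

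The members and lists were chosen with earlier results of these data known. All 8 members are named, with up to 4 called genes of each list by size of change per comparison described, and 3 neighbours per member. The values of 1 listed gene are not reported here. Replicate numbers paired libraries: deviations from group means correlated at 0.213 to 0.587 in all 45 same-numbered pairs and at -0.462 to 0.0949 in 90 other pairs. The labels do not say what a number shares. Alternatives were other pseudocounts, filters and scalings, the replicate block, library weights, no variance trend, only the compared groups, and each library left out. List counts under them were added after seeing the data. Figures used matplotlib 3.10.9.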

Additional observations from a re-analysis of the deposited data

How the results depend on the processing

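Of 583 changes of members recomputed under other settings, 562 kept direction and side of the threshold, 9 lost the call, 9 gained it and 3 changed sign. Of 366 with 1 library left out, 328 kept both, 20 lost the call, 3 gained it and 15 changed sign. No call changed sign. The sign changes were in uncalled values near 0: Mxd1 at 50 µM beside PE (0.01 after quantile normalization; -0.19 to 0.02 with 1 library left out), Myc at 10 µM beside PE (0.01 after quantile normalization, 0.09 with library weights; -0.23 to 0.28), Myc with PE (-0.44 to 0.02) and at 10 µM (-0.05 to 0.53), Mxd1 with PE (-0.01 to 0.13), Mxd3 with PE (-0.36 to 0.18), and Max at 10 µM (-0.21 to 0.03), at 10 µM beside PE (-0.04 to 0.05) and at 50 µM (-0.29 to 0.02). The number of members called moved from 0 to 1 after quantile normalization, 1 with only the compared groups and 2 with the replicate block for the difference between PE responses at 50 µM (0 to 1 with 1 library left out). It moved from 4 to a range of 2 to 4 for PE (library left out), from 3 to 5 with the replicate block for the PE response at 10 µM (1 to 3, with 1 without the third library of 10 µM), from 0 to 1 with library weights at 10 µM alone, and from 1 to 0 without a filter and 2 with the replicate block at 10 µM beside PE (0 to 2). Rows called over the whole table moved by more than 1.5 times with the replicate block for 10 µM alone (1696 to 2761; 949 to 1456 with 1 library left out), 10 µM beside PE (1778 to 2924; 1032 to 1575), the PE response at 50 µM (1500 to 2491; 741 with only the compared groups, 943 without the first library of PE with 50 µM) and its difference from that without inhibitor (734 to 1690; 1265 with library weights, 391 to 920), and at 10 µM (32 to 230; 17 without a filter, 86 with library weights, 13 to 34). Quantile normalization moved the share of called rows that were higher from 58.5% to 47.7% for PE and from 65.0% to 52.5% for the PE response at 50 µM. The replicate block changed no call of a member other than those given with the results. With fewer libraries the tests have fewer degrees of freedom. The cause of the other shifts was not tested. Absolute depth is unknown, which limits Mycn and Mxd3 most, since both lie under 1 FPKM in some libraries at 50 µM.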
